A study of Mus musculus with 2 samples.

Results

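Small leucine-rich proteoglycans are secreted proteins of the extracellular matrix whose curved leucine-rich repeat domain binds collagen fibrils and growth factors, and many of them carry chondroitin, dermatan or keratan sulfate chains. In bone and tendon they are known for setting the spacing and width of collagen fibrils and for holding transforming growth factor and bone morphogenetic protein ligands in the matrix. The family members described here were 10 genes, taken by symbol out of 28006 features of the count tables: Dcn, Bgn, Aspn, Lum, Fmod, Prelp, Omd, Ogn, Podn and Chad.

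The measurements were unique molecular identifier (UMI) counts per gene from single cells of 2 mice, Mouse #1 and Mouse #2, sorted for Cxcl12-GFP from femurs at postnatal day 28. Both mice had the genotype Cxcl12(GFP/+); Cxcl12-iCreER; R26R(tdTomato/+) and received tamoxifen at postnatal day 21, so that a red reporter marked cells in which a Cxcl12 bacterial artificial chromosome transgene, present as 1 line, had driven Cre. All cells therefore carried 1 GFP-replaced Cxcl12 allele, and no untreated or wild-type group was measured. The labels name a GFP-positive population in one place and a tdTomato-positive sort in another, and both marked and unmarked cells were present in the counts.

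After filtering, 2750 and 4582 cells with a median of 12966.5 and 12190 UMIs were kept from Mouse #1 and Mouse #2. Both libraries together shared 7 cell barcodes. Clusters were named from listed marker genes, and none of the proteoglycan genes described here entered the clustering. Reticular-like cells (1231 in Mouse #1 and 2395 in Mouse #2) had markers of marrow reticular stroma such as Adipoq and Lpl, preosteoblast-like cells (432 and 816) had Alpl, Mmp13 and Spp1, and osteoblast-like cells (14 and 62) had Bglap and Dmp1. Periosteal-like cells (78 and 233) had 5 of 8 periosteal markers and were led by Mgp, H19, Apod, Col14a1 and Has1. Endothelial-like cells (151 and 137) had Pecam1 and Cdh5, and hematopoietic cells (723 and 716) served as the cell type that should lack these genes. Levels are given as CPM, the UMIs of a gene per 1000000 UMIs of the class. Tendon markers summed to 55.5 and 36.3 CPM in periosteal-like cells and cartilage markers to 0.711 and 4.50 CPM, with 6 and 4 of the 7 cartilage markers at 0. Of the 8 periosteal markers 2 were at 0 in each mouse. In osteoblast-like cells cartilage markers summed to 498 and 1001 CPM, with 5 and 4 of the 7 at 0. Col2a1 was among the leading genes of that cluster, and the part of cartilage markers in its values was not tested.

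The promoters of 3 neighbours on chromosome 13, asporin (Aspn), osteomodulin (Omd) and osteoglycin (Ogn), are shown because these genes lay 14.9 and 15.2 kb apart on the same strand and differed from each other across classes, and that of biglycan (Bgn) because that gene was high in every stromal class. In mm10, Dcn lies at chr10:97479609-97518143 and Lum at chr10:97565128-97572703 on the + strand, Prelp at chr1:133910304-133921414 on the - strand, Fmod at chr1:134037254-134048277 and Chad at chr11:94565047-94569127 on the + strand, and Podn at chr4:108014791-108096445 on the - strand. Of the 10 genes, 8 had an entry among the RefSeq promoter windows of GRCm38.p6. The GENCODE gene starts of osteoglycin (chr13:49608046) and biglycan (chrX:73483602) lay downstream of the RefSeq starts that set their windows and motif positions. Each run holds the 250 bases before the annotated start, 5′ to 3′ on the gene's strand, with motif matches in capitals:
Aspn (chr13:49544193-49544442, + strand): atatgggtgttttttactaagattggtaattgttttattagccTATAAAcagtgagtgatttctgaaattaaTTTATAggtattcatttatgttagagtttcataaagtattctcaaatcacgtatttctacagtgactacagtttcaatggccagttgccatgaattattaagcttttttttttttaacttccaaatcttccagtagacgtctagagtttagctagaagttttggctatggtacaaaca
Omd (chr13:49582212-49582461, + strand): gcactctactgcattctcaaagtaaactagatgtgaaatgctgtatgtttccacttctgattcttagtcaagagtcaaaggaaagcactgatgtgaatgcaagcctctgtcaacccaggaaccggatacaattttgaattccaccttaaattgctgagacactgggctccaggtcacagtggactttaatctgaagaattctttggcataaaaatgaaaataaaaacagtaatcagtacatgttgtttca
Ogn (chr13:49607765-49608014, + strand): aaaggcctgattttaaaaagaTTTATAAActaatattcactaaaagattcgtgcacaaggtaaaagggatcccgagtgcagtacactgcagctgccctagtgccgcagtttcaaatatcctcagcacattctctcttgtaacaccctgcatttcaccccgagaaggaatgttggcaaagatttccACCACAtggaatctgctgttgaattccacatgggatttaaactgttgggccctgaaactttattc
Bgn (chrX:73483351-73483600, + strand): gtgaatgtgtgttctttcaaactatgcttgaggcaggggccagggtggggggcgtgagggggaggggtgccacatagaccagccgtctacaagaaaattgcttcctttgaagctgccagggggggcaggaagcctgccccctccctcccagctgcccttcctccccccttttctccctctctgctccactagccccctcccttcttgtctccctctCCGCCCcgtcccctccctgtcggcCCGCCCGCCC
Searched on both strands of 32851 windows of the same length, TATAAA occurred in 12.37% of them and GGGCGG in 32.74%. The letters TGTGGT occurred in 14.05% of windows and TGANTCA in 6.749%. Asporin's window held TATAAA at -207 and, on the other strand, at -178. Osteoglycin's window held TATAAA on both strands in overlapping letters at -229 and -227, and TGTGGT on the other strand at -65. Biglycan's window held GGGCGG on the other strand at -34, -10 and -6, the last pair overlapping, and osteomodulin's window held none of the searched letters.

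The 10 genes together made up 17406 CPM in periosteal-like cells of Mouse #1 and 13024 CPM of Mouse #2, and 7938 and 9646 CPM in osteoblast-like cells. Their sum was 3044 and 3425 CPM among reticular-like cells and 2722 and 4596 CPM among preosteoblast-like cells. The sum was only 443 and 553 CPM in the endothelial-like class and 170.3 and 392 CPM in hematopoietic cells. The order periosteal-like, osteoblast-like, the reticular-like and preosteoblast-like pair, then endothelial-like was therefore the same in both mice, while the 2 mice of the preosteoblast-like class lay on either side of the reticular-like values. With each cell thinned to 2000 UMIs, periosteal-like cells had UMIs from a mean of 4.95 and 4.44 of the 10 genes, reticular-like cells from 2.64 and 2.79, and endothelial-like cells from 0.397 and 0.489.

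Decorin (Dcn) carries a single chondroitin or dermatan sulfate chain and binds fibrillar collagen. Its level was 9219 and 5970 CPM in periosteal-like cells and 5399.6 and 6307 CPM in osteoblast-like cells of Mouse #1 and Mouse #2. It was 508 and 1203 CPM in preosteoblast-like cells, 339.7 and 384 CPM in the reticular-like class, with 127 and 83.8 CPM in endothelial-like cells. The periosteal-like and osteoblast-like values overlapped, whereas every other neighbour in this order was separated in both mice. Decorin was 1.20 ± 0.37 log2 units (SE, edgeR adjusted p = 0.0348) higher in preosteoblast-like than in reticular-like cells, and a further 3.51 ± 0.40 units higher in osteoblast-like cells (adjusted p = 8.05e-05). In Mouse #1, 1 of the 14 osteoblast-like cells held 33.4% of the class's decorin UMIs, against at most 3.46% in a cell of Mouse #2.

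Biglycan, the closest relative of decorin and an abundant proteoglycan of bone, was high in all 4 stromal classes. Reticular-like cells of the 2 mice had 1439.7 and 1619.9 CPM, the preosteoblast-like class 1049 and 1163 CPM and the osteoblast-like class 1355 and 1878 CPM. Periosteal-like cells had 2878 and 2921 CPM, above every other class in both mice, against 177 and 266 CPM in the endothelial-like class. Reticular-like and osteoblast-like values overlapped. The difference between preosteoblast-like and reticular-like cells was -0.51 ± 0.22 on the log2 scale (adjusted p = 0.119), and it passed the threshold with the mouse as a block (adjusted p = 0.0386).

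Asporin, the member with an aspartate-rich stretch that binds calcium and collagen, was found mainly in a single class. Periosteal-like cells had 896 and 708 CPM, and preosteoblast-like cells had 32.1 and 130.5 CPM. Reticular-like cells had 3.57 and 2.28 CPM, endothelial-like cells 1.05 and 12.6 CPM, and osteoblast-like cells 0 and 1 UMI. The step from preosteoblast-like up to periosteal-like cells was 3.39 ± 0.57 log2 units (adjusted p = 0.00198), and that from reticular-like up to preosteoblast-like cells 4.82 ± 0.66 units (adjusted p = 4.72e-04). Over both mice its level in preosteoblast-like cells was 324 times that in osteoblast-like cells, with an exact binomial counting interval of 58.1 to 12810.2.

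Lumican (Lum), which carries keratan sulfate and regulates fibril width, had the same order of class means as decorin. Unlike decorin, it was separated between periosteal-like and osteoblast-like cells, and it overlapped at the low end. It had 2385 and 1884 CPM in periosteal-like cells, 969 and 1087 CPM in osteoblast-like cells and 347 and 544 CPM in the preosteoblast-like class. The reticular-like level was 84.3 and 56.3 CPM and the endothelial-like level 57.5 and 25.1 CPM, so that the last pair overlapped. Lumican was higher in preosteoblast-like than in reticular-like cells by 2.63 ± 0.34 on the log2 scale (adjusted p = 3.47e-04). In hematopoietic cells it was 5.41 and 33.4 CPM, or 6.42% and 59.3% of the reticular-like level of the same mouse. The part of background in the reticular-like level, to which lumican's fold changes are ratios, was not tested.

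Fibromodulin (Fmod), a relative of lumican that binds the same region of collagen, was low throughout. Its level was 17.2 and 82.2 CPM in osteoblast-like cells, 18.5 and 30.4 CPM in preosteoblast-like cells, 12.8 and 10.1 CPM in periosteal-like cells, and 4.37 and 5.13 CPM in reticular-like cells. Endothelial-like cells had 0 UMIs in Mouse #1 and 4 UMIs from 1 cell in Mouse #2. The osteoblast-like and preosteoblast-like values overlapped between the mice, and in Mouse #1 the osteoblast-like value was the lower one by CPM. The TMM-scaled fit gave a log2 fold change of 2.07 ± 0.43 (adjusted p = 0.00356), or 1.32 ± 0.42 (adjusted p = 0.0185) with library totals, and in Mouse #1 1 cell held 77.8% of the 9 osteoblast-like UMIs.

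Prelp encodes a proline- and arginine-rich member that binds heparan sulfate and links basement membranes to collagen, and it was the only member tested whose highest class was reticular-like. It had 368 and 535 CPM in reticular-like cells and 191 and 178 CPM in periosteal-like cells. Endothelial-like cells had 47.6 and 47.6 CPM, preosteoblast-like cells 15.6 and 38.7 CPM, and osteoblast-like cells 0 and 6.46 CPM, the order being the same in both mice. Prelp was lower in preosteoblast-like than in reticular-like cells (log2 fold change -4.06 ± 0.39, adjusted p = 5.0e-05) and lower in periosteal-like than in reticular-like cells (-1.22 ± 0.35, adjusted p = 0.0305).

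Osteomodulin, a keratan sulfate proteoglycan first isolated from mineralized bone, was highest in preosteoblast-like or osteoblast-like cells. It had 168 and 721 CPM in preosteoblast-like cells, 178 and 262 CPM in osteoblast-like cells, and 82.5 and 109 CPM in periosteal-like cells. The reticular-like values of 21.5 and 20.9 CPM overlapped the endothelial-like values of 4.71 and 26.2 CPM. The osteoblast-like class was the higher one in Mouse #1 and the preosteoblast-like class in Mouse #2, and the fitted difference was -0.24 ± 0.58 on the log2 scale (adjusted p = 0.791). Osteomodulin was higher in preosteoblast-like than in reticular-like cells by 4.36 ± 0.64 (adjusted p = 7.38e-04). Its hematopoietic level was 2.12 and 13.7 CPM, or 9.87% and 65.6% of the reticular-like level of the same mouse. The part of background in that reticular-like level was not tested.

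Osteoglycin, which was named from bone and also helps set fibril width, had 1702 and 1216 CPM in periosteal-like cells, 765 and 792 CPM in reticular-like cells and 581 and 764 CPM in preosteoblast-like cells. Osteoblast-like cells had only 15.3 and 20.8 CPM, below the 28.8 and 89.5 CPM of endothelial-like cells. Hematopoietic cells had 40.6 and 62.6 CPM, above both osteoblast-like values and above the endothelial-like value of Mouse #1. The osteoblast-like level was therefore read as no higher than background. Osteoglycin thus differed by -4.36 ± 0.48 log2 units between osteoblast-like and preosteoblast-like cells (adjusted p = 7.21e-05), while the preosteoblast-like and reticular-like classes differed by -0.25 ± 0.36 (adjusted p = 0.673). Of the 3 neighbours on chromosome 13, asporin and osteoglycin were therefore lower in osteoblast-like than in preosteoblast-like cells, and osteomodulin did not pass the test.

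Podocan (Podn), which binds collagen and restrains smooth muscle growth, had 39.8 and 27.0 CPM in periosteal-like cells and 17.2 and 9.76 CPM in reticular-like cells. Preosteoblast-like cells had 2.07 and 0.679 CPM from 15 and 10 UMIs. No podocan UMI was found in endothelial-like or osteoblast-like cells of either mouse, which put the reticular-like level at least 15.8-fold and 13.7-fold higher than a floor of 3 UMIs over both mice of those classes. Podocan shares its strand with the overlapping gene Scp2, which reached 268 CPM in a class, so that its counts are uncertain. Chondroadherin (Chad), a cartilage member that binds integrins, gave 7 UMIs from 5 of 76 osteoblast-like cells, 4 from preosteoblast-like cells, 1 each from reticular-like and periosteal-like cells and 0 from endothelial-like cells. Hematopoietic cells gave 4 UMIs from 1 cell, and the gene did not pass the filter on low counts.

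**Figure D1:**
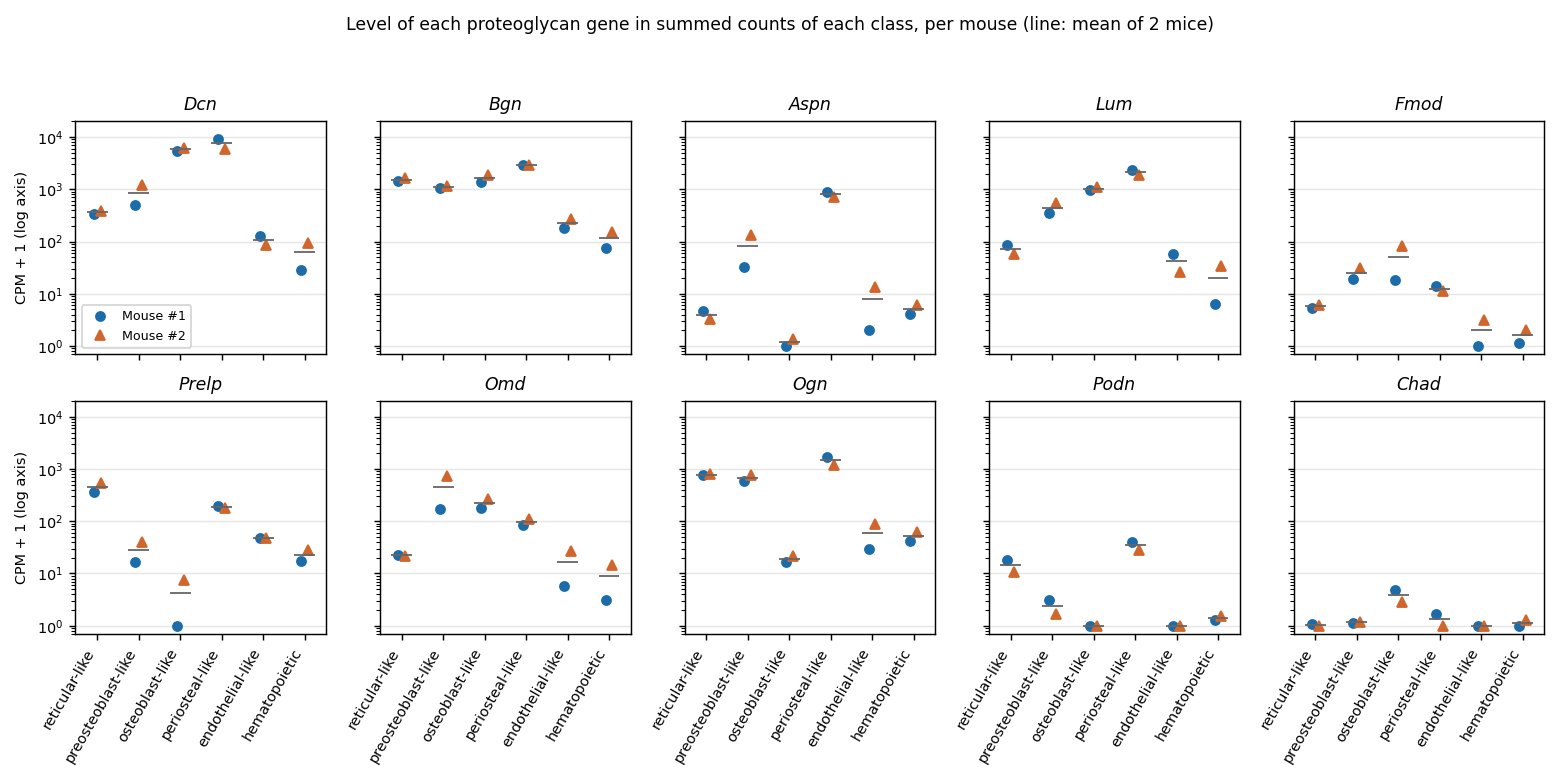
Level of each gene as CPM + 1 on a log axis (y) in the summed counts of each class (x), with circles for Mouse #1, triangles for Mouse #2 and a line at the mean of the 2 mice. Asporin spans from 0 CPM in osteoblast-like cells of Mouse #1 to 896 CPM in periosteal-like cells, whereas biglycan stays between 1049 and 2921 CPM in the 4 stromal classes.

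The genes were also counted as the share of cells with at least 1 UMI after thinning every cell to 2000 UMIs, with Wilson intervals that cover counting error only. Biglycan was found in 88.8% (87.0 to 90.5%) and 91.3% (90.1 to 92.4%) of the reticular-like class. Hematopoietic cells gave 6.51% and 14.0%, and their median depths of 12811 and 10648.5 UMIs were close to the 12434 and 11593 UMIs of reticular-like cells. Prelp was found in 45.2% (42.4 to 48.0%) and 58.2% (56.2 to 60.1%) of reticular-like cells but in 3.01% and 5.29% of preosteoblast-like cells, near its 2.08% and 4.06% in hematopoietic cells. Asporin was found in 65.4% (54.3 to 75.0%) and 52.6% (46.2 to 58.9%) of periosteal-like cells. Its 0.489% and 0.544% in reticular-like cells lay above the 0.139% of hematopoietic cells in Mouse #1 and below their 1.12% in Mouse #2. They were read as near background, so asporin's fold changes against reticular-like cells are ratios to such a level.

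Osteomodulin was found in 20.8% (17.3 to 24.9%) of preosteoblast-like cells of Mouse #1 and 46.2% (42.8 to 49.7%) of Mouse #2, and these intervals did not overlap. Its share in hematopoietic cells was 0.277% and 1.12%. Decorin was found in 92.9% (68.5 to 98.7%) and 96.8% (89.0 to 99.1%) of osteoblast-like cells, against 3.88% and 7.42% of hematopoietic cells. Osteoglycin was found in 71.7% (69.1 to 74.1%) and 74.8% (73.0 to 76.5%) of reticular-like cells, and in 0 of 14 and 0 of 62 thinned osteoblast-like cells, which allows up to 21.4% and 4.84%. Without thinning, 35.7% and 37.1% of these osteoblast-like cells had an osteoglycin UMI at median depths of 32968.5 and 48426.5 UMIs.

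**Figure D2:**
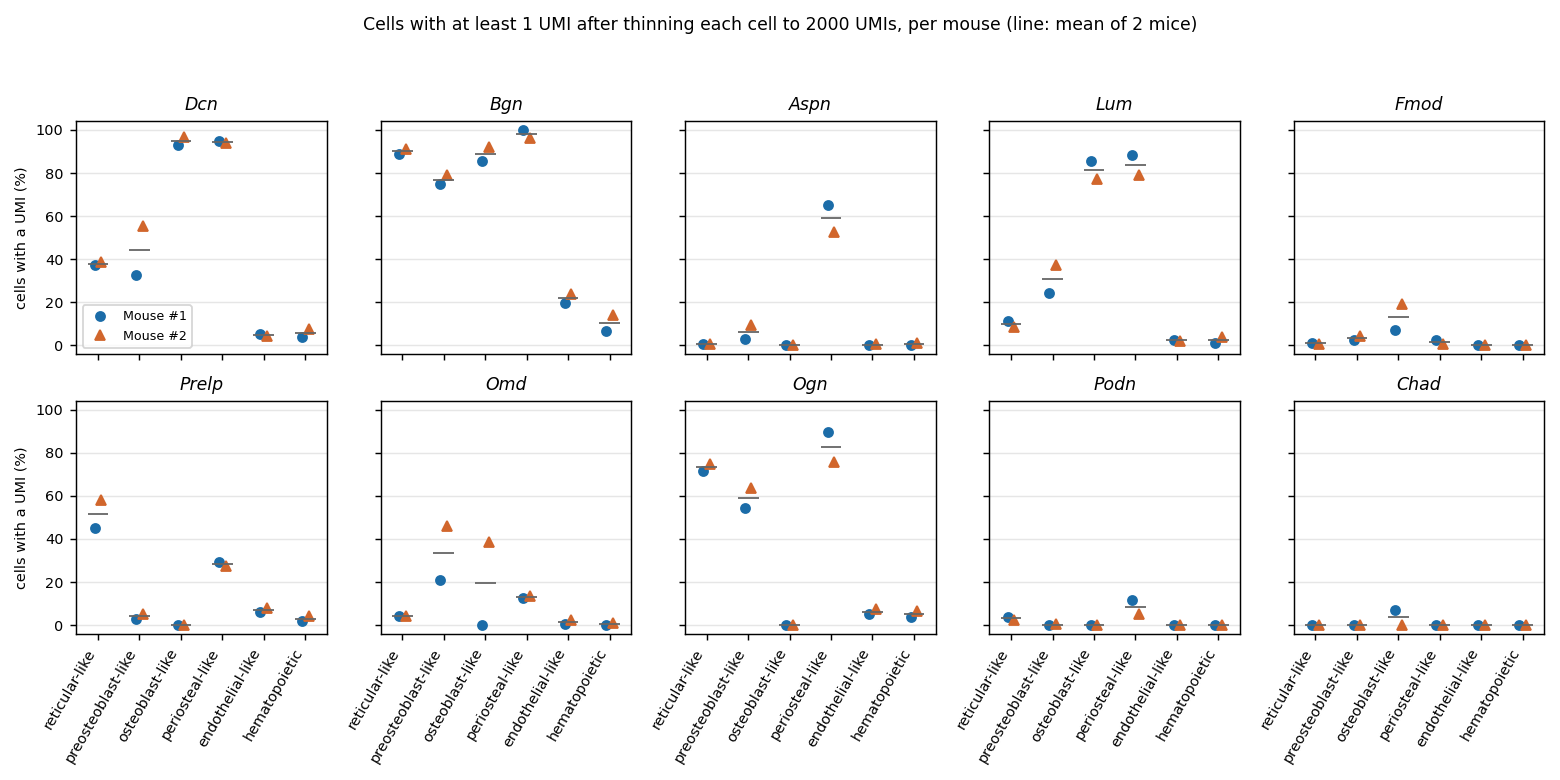
Percent of cells with at least 1 UMI of each gene (y) in each class (x), every cell thinned to 2000 UMIs, for Mouse #1 (circles) and Mouse #2 (triangles), with a line at the mean. Biglycan lies at 74.8% or more in the reticular-like, preosteoblast-like, osteoblast-like and periosteal-like classes, and asporin exceeds 50% in periosteal-like cells.

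Each class entered the test as 1 sum of counts from either mouse, so that n was 2 mice per class. The p-values of the class comparisons rest on the spread between mice within a class, estimated over all classes in 1 fit. That fit had no term for the mouse, and its spread was moderated over all genes, with 10.48 total degrees of freedom for decorin. The comparisons share classes and are not independent of each other. Of the 10 genes, 9 passed the filter on low counts. Between preosteoblast-like and reticular-like cells 7 of the 9 differed at an adjusted p under 0.05, where 24.6% of 11947 genes did, 12.7% higher and 11.9% lower. Asporin, osteomodulin, lumican, fibromodulin and decorin were higher and Prelp and podocan lower in preosteoblast-like cells, with a median log2 fold change of 1.20 for the 9 genes and 0.04 for all genes. Decorin's call was lost when only these classes were fitted (adjusted p = 0.065). Preosteoblast-like markers, not proteoglycans, summed to 14277 and 15782 CPM in preosteoblast-like cells and to 2402 and 3541 CPM in reticular-like cells.

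Between periosteal-like and reticular-like cells 7 of the 9 differed, where 21.6% of all genes did, 12.4% higher and 9.2% lower. Asporin (log2 fold change 8.21 ± 0.74), lumican (5.0 ± 0.38), decorin (4.47 ± 0.42), osteomodulin (2.26 ± 0.62), podocan (1.35 ± 0.39) and biglycan (1.00 ± 0.22) were higher in periosteal-like cells and Prelp lower, with adjusted p between 1.0e-05 and 0.0399. Osteoglycin, at 0.98 ± 0.37, missed the threshold (adjusted p = 0.0845) and passed it with the mouse as a block (adjusted p = 0.0430). The median was 1.35 for the 9 genes and -0.01 for all genes. DESeq2 did not call Prelp (adjusted p = 0.0676) or podocan (adjusted p = 0.0537) here. The preosteoblast markers summed to 13828.5 and 13818 CPM in periosteal-like cells, close to their sum in preosteoblast-like cells, and the periosteal markers to 686 and 602 CPM, while the periosteal list reached at most 17.1 CPM in the reticular-like class and 11.3 CPM in the preosteoblast-like class. The part of these marker lists in the periosteal-like values was not tested. Against preosteoblast-like cells 8 of the 9 differed, where 21.5% of all genes did, 12.5% higher and 9.01% lower, with a median of 2.37 against -0.05 for all genes. With library totals in place of TMM the share of all calls that were higher went from 58.1% to 44.3% here, while the members had the same 7 and 1 calls. The 7 higher ones were podocan (4.86 ± 0.52), asporin, decorin (3.26 ± 0.39), Prelp (2.84 ± 0.38), lumican (2.37 ± 0.34), biglycan (1.51 ± 0.22) and osteoglycin (1.24 ± 0.37, adjusted p = 0.0364, and 0.0557 with cells of at least 500 genes), and osteomodulin was the only one lower in periosteal-like cells, at -2.10 ± 0.60 (adjusted p = 0.0314, and 0.0609 when only these classes were fitted).

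Between osteoblast-like and preosteoblast-like cells 6 of the 9 differed, where 35.4% of all genes did, 16.9% higher and 18.5% lower. Decorin, fibromodulin (2.07 ± 0.43), lumican (1.95 ± 0.33) and biglycan (1.30 ± 0.22) were higher in osteoblast-like cells, and asporin and osteoglycin were lower. The median was -0.24 for the 9 genes and -0.15 for all genes. These values rest on TMM scaling, and with library totals in its place, an alternative chosen after seeing the data, the median of all genes moved by -0.76 and the share of calls that were higher went from 47.7% to 10.7%. The 4 higher members kept their call on that scale, at 2.77 for decorin, 1.32 for fibromodulin, 1.21 for lumican and 0.55 for biglycan (adjusted p = 0.0369), and Prelp became lower (-2.40, adjusted p = 0.00696). Prelp, with 0 and 18 UMIs in osteoblast-like cells, missed the threshold at -1.65 ± 0.66 (adjusted p = 0.0775) and passed it with the mouse as a block (adjusted p = 0.0319). With the mouse as a block, 29.1% of all genes passed between preosteoblast-like and reticular-like cells, 23.5% in either periosteal-like comparison, 50.2% and 50% in the endothelial-like ones and 35.9% here. No osteoblast-like cell was among those with the highest doublet scores.

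**Figure D3:**
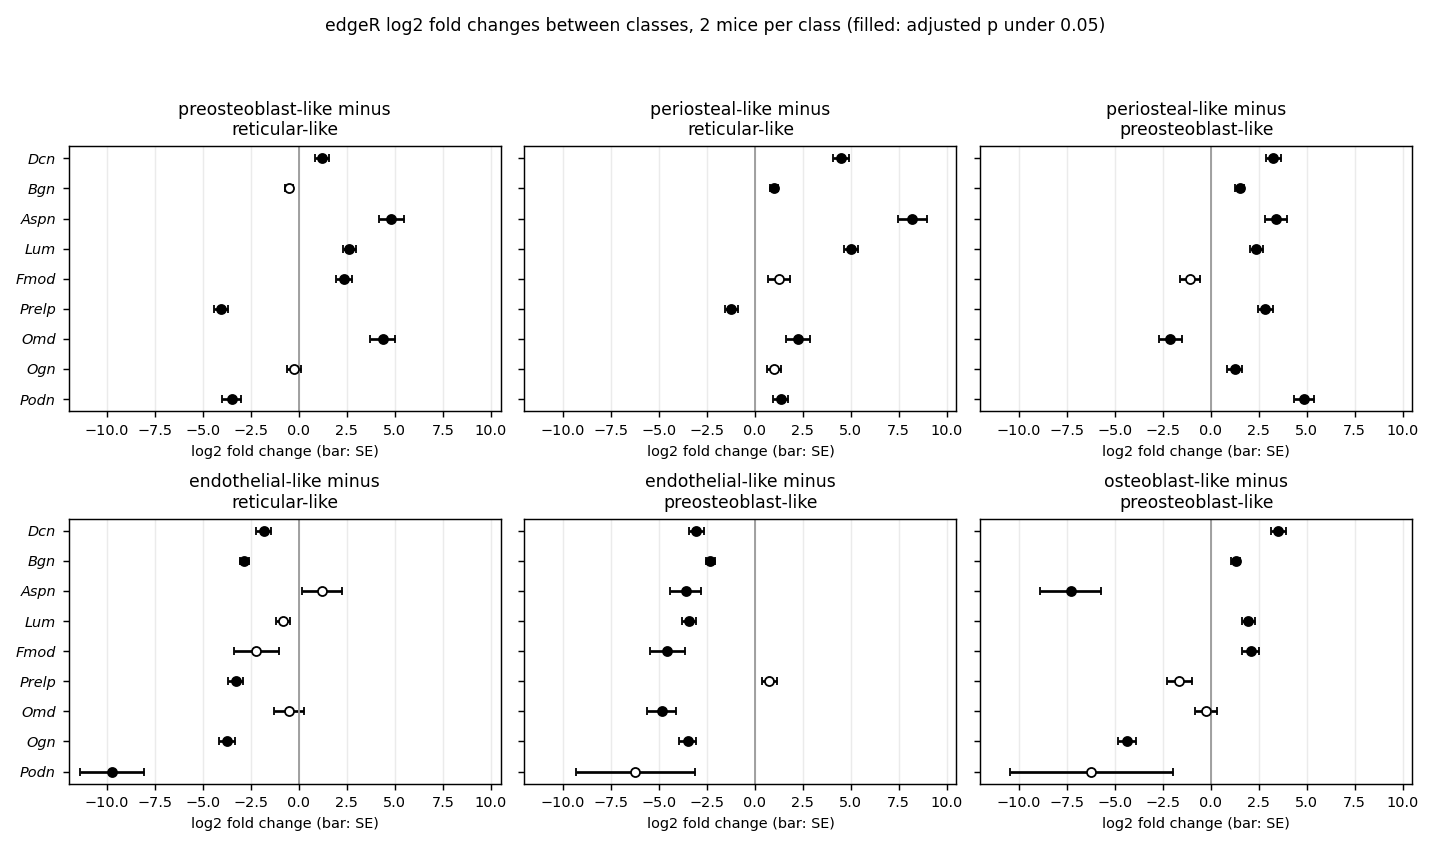
edgeR log2 fold change (x, bar: SE) of 9 genes (y) in 6 comparisons of classes with 2 mice each, filled where the adjusted p was under 0.05. In periosteal-like minus reticular-like cells asporin lies at 8.21 and Prelp at -1.22. Podocan's fitted values against endothelial-like and osteoblast-like cells rest on 0 UMIs there.

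The other genes of the family gave few UMIs apart from Podnl1, a podocan-like gene, and Ecm2, which lies 11.7 kb from asporin. Of 8 such genes 4 were tested between classes. Podnl1 had 147.5 and 176 CPM in reticular-like cells and 194 and 121 CPM in preosteoblast-like cells, against 30.6 and 37.4 CPM in periosteal-like cells. It was lower in periosteal-like than in reticular-like cells (-2.15 ± 0.26, adjusted p = 2.1e-04). Ecm2 had 26.2 and 27.2 CPM in reticular-like cells and 59.1 and 44.5 CPM in endothelial-like cells. It was higher in endothelial-like cells (0.90 ± 0.21, adjusted p = 0.00463), the opposite direction to the 5 called members. Its level was 70.4 and 54.7 CPM in the arterial cluster of endothelial-like cells but 25.1 and 9.33 CPM in the sinusoidal cluster, below the reticular-like values of the same mice. Of the 4, 1 differed between preosteoblast-like and reticular-like cells, all 4 in both endothelial-like comparisons and between periosteal-like and reticular-like cells, and 3 in each of the other pair of class comparisons. The shares of all genes called were 24.6% in the first of these, 48.7% and 48.6% in the endothelial-like ones, 21.6% and 21.5% in the periosteal-like ones and 35.4% in the osteoblast-like one. Tsku, a secreted inhibitor of growth factor signalling, had 19.1 and 19.8 CPM in osteoblast-like cells and 7.86 and 7.06 CPM in preosteoblast-like cells (2.15 ± 0.24, adjusted p = 7.29e-05, or 1.40 ± 0.24 with library totals in place of TMM). Chadl, a chondroadherin-like gene, had at most 7.82 CPM in a class. Between osteoblast-like and preosteoblast-like cells 2 of the 4 were higher and 1 lower, but 1 higher and 2 lower with library totals.

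The enzymes that build and sulfate the chains, with the proteases that trim some members, were a list of 30 genes of which 28 were tested. Between preosteoblast-like and reticular-like cells 6 were higher and 6 lower, where 24.6% of all genes differed, with a median of -0.0022 on the log2 scale. Chst5, which sulfates keratan chains, had 14.9 and 9.03 CPM in preosteoblast-like cells and 1.85 and 1.81 CPM in reticular-like cells (2.63 ± 0.35, adjusted p = 6.17e-04), Chst13, a chondroitin 4-sulfotransferase, was higher (3.89 ± 0.70) from at most 24 UMIs in a sum, and Chst3, a chondroitin 6-sulfotransferase, was lower (-2.06 ± 0.34). In periosteal-like against reticular-like cells 6 were higher and 2 lower, where 21.6% of all genes differed. Those with the widest differences were Tll1, a tolloid protease (4.6 ± 0.73), Chst1, a keratan sulfate sulfotransferase (3.27 ± 0.53), and Chst15, which adds a further sulfate to chondroitin (-2.21 ± 0.21). Tll1 rested on 12 and 12 UMIs in periosteal-like and 2 and 8 UMIs in reticular-like cells, and Chst1 on 9 and 38 against 18 and 26 UMIs.

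In periosteal-like against preosteoblast-like cells 8 were higher and 4 lower, against 21.5% of all genes called, led by Chst5 (-5.66 ± 0.81), Chst1 (4.15 ± 0.62) and Tll1 (3.16 ± 0.70). These rest on few UMIs, with 0 and 1 of Chst5 in periosteal-like cells and 2 and 10 of Chst1 in preosteoblast-like cells. Tll1 had 12 and 12 UMIs in periosteal-like against 3 and 11 in preosteoblast-like cells. In osteoblast-like against preosteoblast-like cells 11 were higher and 6 lower, against 35.4% of all genes called, and with library totals in place of TMM 7 were higher and 12 lower. Chst13 had 34.5 and 50.6 CPM in osteoblast-like cells and 0.551 and 1.63 CPM in preosteoblast-like cells (5.93 ± 0.43, adjusted p = 4.8e-06), while Chst2 (-2.31 ± 0.31) and Chst7 (-2.30 ± 0.59) were lower. Osteoblast-like cells held 5 and 28 UMIs of Chst2 and 1 and 3 UMIs of Chst7. In endothelial-like cells 5 were higher and 12 lower than in reticular-like cells, and 7 were higher and 11 lower than in preosteoblast-like cells, against 48.7% and 48.6% of all genes called. Chst1 was higher in both, with 15.7 and 37.7 CPM in endothelial-like and 1.11 and 0.872 CPM in reticular-like cells. Chst5 and Chsy3, a chondroitin synthase, had 0 endothelial-like UMIs, so that Chst5 was at least 14.0-fold and Chsy3 at least 5.51-fold lower there than in preosteoblast-like cells.

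Endothelial-like cells were low in most members. Against reticular-like cells 5 of the 9 differed, all lower, where 48.7% of all genes differed, 24.7% higher and 24% lower. The log2 fold change was -2.84 ± 0.24 for biglycan (adjusted p = 3.18e-06), -3.76 ± 0.42 for osteoglycin, -3.30 ± 0.40 for Prelp and -1.84 ± 0.38 for decorin, and podocan was the fifth. Lumican (-0.82 ± 0.36), fibromodulin (-2.23 ± 1.17), asporin (1.21 ± 1.03) and osteomodulin (-0.50 ± 0.77) missed the threshold, with adjusted p from 0.082 to 0.622. Asporin was called higher with cells of at least 500 genes (2.18, adjusted p = 0.0312), with cells of at least 2000 genes (2.35, adjusted p = 0.0171) and without a low-count filter (1.18, adjusted p = 0.00162), but was at -3.31 (adjusted p = 0.246) without the highest doublet scores, and 1 cell held 91.7% of its 24 UMIs in Mouse #2. The median was -2.23 for the 9 genes, with podocan at its bound or at its fitted value, and -0.04 for all genes. Against preosteoblast-like cells 7 of the 9 were lower and 0 higher, where 48.6% of all genes differed, 23.8% higher and 24.8% lower, and the median was -3.51, or -3.45 with podocan at its bound. The 7 were osteomodulin (-4.86 ± 0.75), fibromodulin (-4.56 ± 0.91), asporin (-3.61 ± 0.80), osteoglycin (-3.51 ± 0.42), lumican (-3.45 ± 0.37), decorin (-3.04 ± 0.40) and biglycan (-2.32 ± 0.23). Prelp was at 0.76 ± 0.40 (adjusted p = 0.142), was called higher without the highest doublet scores (1.11, adjusted p = 0.0243) or without a low-count filter (0.73, adjusted p = 8.35e-04), and was called lower with the arterial cluster alone (-1.70, adjusted p = 0.0498). Podocan, at least 1.45-fold lower in endothelial-like cells, missed the threshold (adjusted p = 0.131) but passed it with the mouse as a block (adjusted p = 0.0294).

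The endothelial-like class held an arterial cluster (121 and 109 cells) and a sinusoidal cluster (30 and 28 cells) that differed in these genes. Biglycan was 603 and 872 CPM in the sinusoidal and 34.9 and 90.5 CPM in the arterial cluster, and its thinned share was 70.0% (52.1 to 83.3%) and 85.7% (68.5 to 94.3%) in sinusoidal and 7.44% and 8.26% in arterial cells, the latter near the hematopoietic share. Prelp was 180.0 and 163 CPM in the sinusoidal and 3.49 and 14.2 CPM in the arterial cluster. Decorin reached 488 and 145 CPM in the sinusoidal cluster, but 1 cell held 77.3% of its UMIs in Mouse #1.

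Reticular markers moved with these values. The 8 reticular markers summed to 2018 and 3435 CPM in the sinusoidal cluster and to 445 and 589 CPM in the arterial cluster, with none at 0 in either. As a share of the reticular-like level of the same mouse, the sinusoidal cluster had 11.5% and 22.7% of the reticular marker sum, 41.9% and 53.8% of biglycan, 48.9% and 30.5% of Prelp and 11.8% and 25.04% of osteoglycin. Lumican had 270.5% and 70.5%, decorin 143.6% and 37.6% and osteomodulin 87.6% and 33.4%, with 1 cell holding 85.3% of the lumican, 77.3% of the decorin and 100% of the osteomodulin UMIs in Mouse #1, and podocan had 0 UMIs. Biglycan, Prelp, lumican, decorin and osteomodulin thus had a larger share than the reticular markers in both mice, osteoglycin about the same share and podocan none. The preosteoblast markers summed to 4234 and 3806 CPM in the sinusoidal cluster and to 178 and 693 CPM in the arterial cluster. Their sum in reticular-like cells was 2402 and 3541 CPM. The mural markers summed to 1339 and 1567 CPM in the sinusoidal cluster, with 3 and 1 of 8 at 0, against 229.65 and 295 CPM in reticular-like cells. The part of any of these lists in the sinusoidal values was not tested.

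Single cells also set several arterial values. In Mouse #2 the arterial cell with the most UMIs of a gene, not tested to be the same cell for each gene, held 95.7% of the 23 asporin UMIs, 91.5% of the 47 osteomodulin UMIs, 76.5% of the 98 decorin UMIs and 68.6% of the 86 osteoglycin UMIs. In Mouse #1 the arterial cluster had 0 UMIs of asporin and osteomodulin and 9 of decorin. With the cells of highest doublet score left out, 8 rather than 5 of the 9 members were lower in endothelial-like than in reticular-like cells, and lumican's difference went from -0.82 (adjusted p = 0.082) to -2.74 (adjusted p = 5.36e-05).

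Within the reticular-like class the most abundant members varied little. Its 4 clusters had 282 to 433 CPM of decorin, 1312 to 1874 CPM of biglycan, 338 to 571 CPM of Prelp and 662 to 919 CPM of osteoglycin over both mice. Lumican was 119.7 and 88.9 CPM in the third cluster, above the other 3 clusters in each mouse. Podocan ranged from 5.90 to 21.6 CPM and was higher in Mouse #1 than in Mouse #2 in each of the 4 clusters.

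Preosteoblast-like cells held 3 subclusters at Leiden resolution 1.0, finer than the 0.5 of the reticular-like clusters, so the spread of the 2 sets is not compared. Decorin, lumican and osteomodulin differed by several fold among them, while osteoglycin ranged from 498 to 907 CPM. The subcluster led by Npy, Wif1 and Postn had 1293 and 2286 CPM of decorin, 1013 and 986 CPM of lumican and 326 and 1158 CPM of osteomodulin. The subcluster led by Kcnk2 and Slc20a2 had 505 and 424.5 CPM of decorin, 304 and 272 CPM of lumican and 206 and 590.1 CPM of osteomodulin. The subcluster led by Spp1 and Mmp13 had 189.5 and 330.05 CPM of decorin, 109.6 and 144 CPM of lumican and 70.1 and 239 CPM of osteomodulin. Of its 148 and 258 cells, 15 and 40 were among those with the highest doublet scores, against 0 and 7 in the Kcnk2-led and 0 and 10 in the Npy-led subcluster, and their part in these levels was not tested. Decorin in the last subcluster was below the reticular-like values of 339.7 and 384 CPM, and in the Npy-led subcluster above them in both mice.

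Biglycan ran the other way, with 516 and 812 CPM in the Npy-led subcluster against 1217 and 1425 CPM in the Kcnk2-led and 1138 and 1464 CPM in the Spp1-led subcluster. Prelp was 3.09 and 11.8 CPM in the Npy-led subcluster and 16.1 to 73.7 CPM in the other pair. The Npy-led subcluster made up 14.1% (Wilson interval 11.1 to 17.6%) of the 434 subclustered cells of Mouse #1 and 35.5% (32.3 to 38.8%) of the 823 of Mouse #2. Beside that share, the class level of decorin was 508 and 1203 CPM and that of lumican 347 and 544 CPM. Osteomodulin was higher in Mouse #2 within each of the 3 subclusters, and lumican was not.

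**Figure D4:**
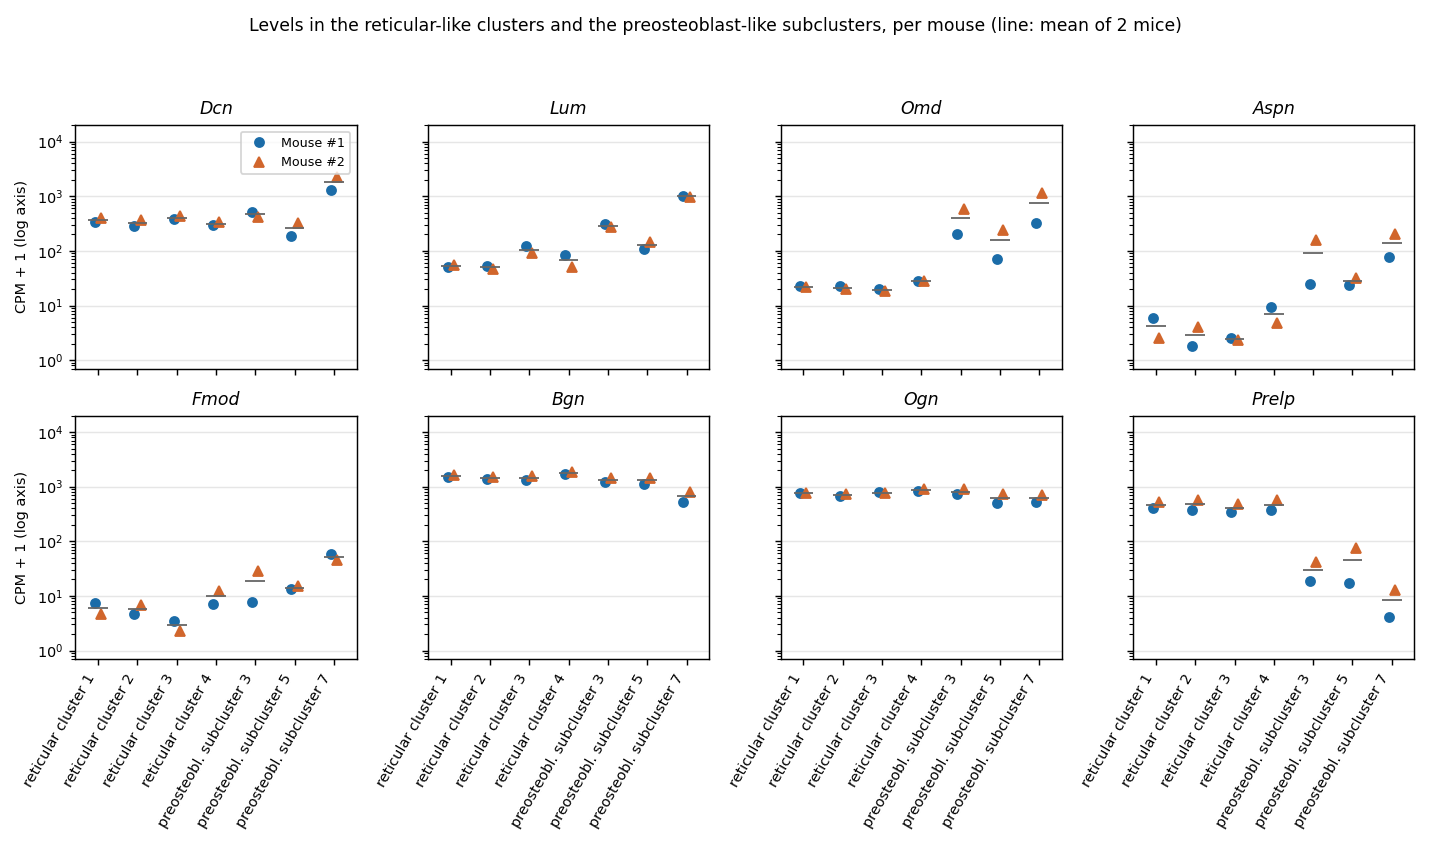
Levels of 8 genes as CPM + 1 on a log axis (y) in 4 reticular-like clusters and 3 preosteoblast-like subclusters (x), with circles for Mouse #1, triangles for Mouse #2 and a line at the mean. Subcluster 3 is the Kcnk2-led, 5 the Spp1-led and 7 the Npy-led one. Decorin and lumican peak in the Npy-led subcluster while biglycan and Prelp are lowest there.

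A cluster of 66 and 83 cycling cells, which took no class name, had 617 and 1114 CPM of decorin, 1330 and 1452 CPM of biglycan, 185 and 367 CPM of lumican and 23.6 and 58.0 CPM of Prelp. Each of these values of Mouse #1 and Mouse #2 lay between those of the highest and the lowest preosteoblast-like subcluster of the same mouse, except biglycan and Prelp in Mouse #1, which lay above all 3. A further 55 and 140 shallow cells, with a median of 3298 and 3160 UMIs, stayed unnamed.

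Reticular-like cells marked by Cxcl12-driven Cre were compared with unmarked reticular-like cells of the same mice. A cell was taken as tdTomato-positive when its tdTomato share exceeded that of 99% of the hematopoietic cells from the same animal, giving 495 positive and 736 negative cells in Mouse #1 and 969 and 1426 in Mouse #2. Without a block 0 of the 9 members and 0 of 12166 genes (0%) passed the threshold in edgeR, although 2 members and 445 genes had an unadjusted p under 0.05. DESeq2 also called 0 members. With the mouse as a block 4 members and 5.45% of genes passed, in a fit that gave every gene the same prior spread and so no spread of its own.

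Decorin was lower in tdTomato-positive cells, at 300.3 CPM against 367 CPM in Mouse #1 and 327 against 423 CPM in Mouse #2 (log2 fold change -0.30 with the block, adjusted p = 4.74e-07, and adjusted p = 0.996 without it). Prelp was 417 against 334 CPM and 578 against 505 CPM (0.29 with the block, adjusted p = 9.72e-07). Podocan was 20.2 against 15.2 CPM and 12.2 against 8.15 CPM (0.52 with the block, adjusted p = 0.00394), and asporin was 1.52 against 4.98 CPM and 1.66 against 2.70 CPM from 10 to 48 UMIs (-1.09 with the block, adjusted p = 0.0238). For these 4 genes both mice had the same direction, although asporin's reticular-like level was read as near background. Biglycan, at 1442 against 1438 CPM and 1549 against 1668 CPM, and lumican, at 92.4 against 78.8 CPM and 48.8 against 61.3 CPM, differed in direction between the mice.

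**Figure D5:**
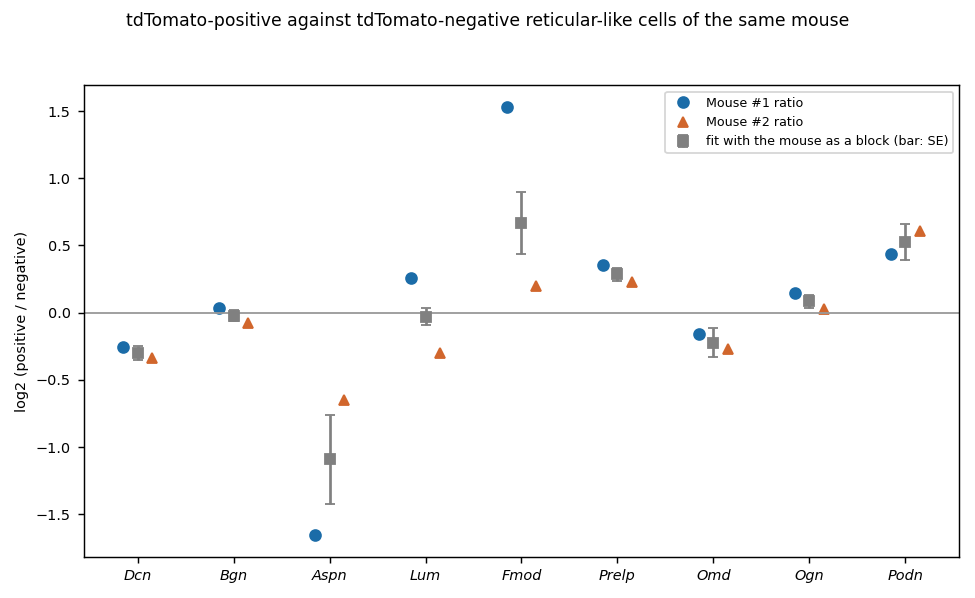
log2 ratio of tdTomato-positive to tdTomato-negative reticular-like cells (y) for 9 genes (x), with circles for Mouse #1, triangles for Mouse #2 and squares for the fit with the mouse as a block (bar: SE). Decorin lies below 0 and Prelp and podocan above 0 in both mice, while lumican's mice fall on either side.

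Across 20 sums, from 10 non-hematopoietic clusters of each of the 2 mice, the genes most like each member were named by Pearson's r of log2(CPM + 1) among 8764 genes. Clusters needed at least 20 cells in each mouse, so the osteoblast-like cluster, with 14 cells in Mouse #1, was left out. The cycling and shallow clusters were kept. The sums of a cluster share mice, libraries and depth, so these values are a description. Decorin was closest to Matn2 (r = 0.939), Clec11a and Col3a1, and lumican to Col1a1 (0.913), Clec11a and Mmp14. Biglycan was closest to Snhg18 (0.976), Fxyd1 and C1qtnf6, asporin to Cryab (0.910), Tram1 and Tmem119, and osteomodulin to Wisp1 (0.897), Fam171b and Wnt5a. Prelp was closest to Chrdl1 (0.919), Des and Rarres2, osteoglycin to Igf1 (0.961), Dkk3 and Gstm2, and podocan to C3 (0.957), Foxp2 and Kcnab1. Fibromodulin and chondroadherin were below the minimum mean of 10 CPM. Among the members, decorin and lumican, 47.0 kb apart on chromosome 10, had the highest r (0.952), followed by biglycan and osteoglycin (0.918), and asporin and Prelp the lowest (-0.153). These r values do not cover osteoblast-like cells, where biglycan had 1355 and 1878 CPM and osteoglycin 15.3 and 20.8 CPM.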

How the data were processed

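Cxcl12-GFP+ femur cells of 2 mice were profiled with 10x Chromium 3' v3 chemistry, about 18000 cells being loaded per mouse. The authors deposited UMI counts per gene and barcode without filtering or normalization, and the file headers name Cell Ranger 3.0.0. The submitters' processing notes list mm10, Cell Ranger and Seurat, and the annotation release and strand setting are not given in the sources used here. The tables held 54940400 and 88790688 UMIs.

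Cells were kept when 1000 or more genes were detected and no more than 15% of UMIs were mitochondrial. They were clustered with scanpy 1.11.5 (Leiden resolution 0.5) on 2000 variable genes. The members, the other listed family genes, the listed chain enzymes and proteases, mitochondrial genes and tdTomato were left out of these variable genes. Counts were summed per mouse and class and tested with edgeR 4.0.16 (quasi-likelihood, TMM, filterByExpr, Benjamini-Hochberg over all genes, threshold 0.05), with DESeq2 1.42.0 as an alternative. The SE of an edgeR log2 fold change was back-calculated as its size divided by the square root of the F statistic. The procedure was checked on simulated counts drawn independently for each sum, with the same spread for every gene. That check does not cover sums that share a mouse. Same-numbered sums came from the same mouse, and their deviations correlated between classes with r from 0.0640 to 0.342 (0.517 for tdTomato). No pipeline call of doublets was usable, since Scrublet marked 2 and 3 cells, so doublets stayed in the main results and the 60 and 168 cells of highest score were removed as an alternative. CPM are counts divided by the summed counts of the class.

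The members, the lists and the markers were chosen with earlier results of these data known, and the rule that scored markers was set after seeing the clusters, as were the splits into preosteoblast-like subclusters (resolution 1.0) and arterial and sinusoidal cells. All 10 members, the tested family genes and the 3 chain enzymes with the widest called change per comparison are named. Coordinates are from GENCODE on GRCm38 (mm10). On the opposite strand, asporin, osteomodulin and osteoglycin overlap Cenpp (at most 9.42 CPM in a class), Prelp overlaps Gm15851 (0.604 CPM) and chondroadherin overlaps Acsf2 (24.1 CPM). These are overlaps of whole gene spans, and whether any read of a pair was counted for the other gene was not tested. Barcodes of 1 to 100 UMIs were used only for free RNA.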

Additional observations from a re-analysis of the deposited data

Results flagged for a closer look

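Barcodes of 1 to 100 UMIs, which hold mainly RNA outside cells and enter no comparison, carried 9 of the 10 members at levels above those of hematopoietic cells in both libraries, the exception being chondroadherin with 1 and 0 UMIs. The mean of the 2 mice was 612 CPM for decorin, 1037 CPM for biglycan, 425 CPM for osteoglycin, 218 CPM for lumican, 174 CPM for Prelp and 114 CPM for osteomodulin. Asporin had 30.1 CPM, fibromodulin 11.98 CPM and podocan 7.39 CPM. Decorin in these barcodes, at 486 and 738 CPM, was above its 339.7 and 384 CPM in reticular-like cells, and osteomodulin, at 53.2 and 175 CPM, was above its 21.5 and 20.9 CPM there. In hematopoietic cells decorin was 27.9 and 94.5 CPM and osteomodulin 2.12 and 13.7 CPM. Both genes were higher in Mouse #2 than in Mouse #1 in these barcodes, in hematopoietic cells and in preosteoblast-like cells, and the part of free RNA in the class levels was not tested.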

How the results depend on the processing

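Of 63 tested results of single members, 40 were called, and 35 of these kept their direction and call under every alternative fit. On the TMM scale all 40 had the same direction in each mouse alone, and by CPM 39 did, the exception being fibromodulin between osteoblast-like and preosteoblast-like cells in Mouse #1. The count of members called between endothelial-like and reticular-like cells went from 5 to 8 without a low-count filter and to 8 without the highest doublet scores, and that between tdTomato-positive and tdTomato-negative cells from 0 to 4 with the replicate block. Other counts stayed within 1.5 times of the main one. Directions turned for asporin between endothelial-like and reticular-like cells without the highest doublet scores (from 1.21 to -3.31), for Prelp between endothelial-like and preosteoblast-like cells with the arterial cluster only (from 0.76 to -1.70, an alternative chosen after seeing the data) and for lumican in the tdTomato comparison with the replicate block (from 0.03 to -0.0301), and the cause was not tested. Calls were lost for decorin between preosteoblast-like and reticular-like cells when only these classes were fitted (adjusted p = 0.065), for Prelp and podocan between periosteal-like and reticular-like cells with DESeq2 (adjusted p = 0.0676 and 0.0537), and for podocan there with at least 2000 genes per cell (0.0562). They were also lost for osteomodulin between periosteal-like and preosteoblast-like cells when only these were fitted (0.0609) and for osteoglycin there with at least 500 genes (0.0557). DESeq2 size factors in edgeR changed no member's call and moved the median of all genes by at most 0.0729. Scaling by library totals without TMM, chosen after seeing the data, moved it by -0.76 between osteoblast-like and preosteoblast-like cells and by at most 0.11 in size elsewhere, called Prelp in the former (-2.40) and turned lumican in the tdTomato comparison (-0.0031). No other member's call or direction changed with it. Leaving out either mouse leaves no residual degrees of freedom, so that only the ratio within each mouse was taken. With the replicate block no called member lost its call. The 14 osteoblast-like cells of Mouse #1 limit that class.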
